A study of Rattus norvegicus with 15 samples.

Results

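Arc, Npas4 and Homer1 are neuronal genes whose RNA is rapidly made when synapses are active, and their levels were followed here across rat brain libraries. The genes were chosen by symbol. Each symbol matched 1 RefSeq transcript record, giving 3 records of the 18278 in the count files. RNA sequencing read counts came from rats whose vagus nerve, the cranial nerve linking the viscera with the brainstem, was stimulated through an implanted device for 30 min on each of 4 days (VNS). Control rats carried a sham device, and all rats were killed right after the session of day 4. Ribosome-depleted RNA of the hippocampus gave 4 VNS and 3 control libraries, all from rats that were also tested for novelty preference for 10 min a day from day 2 to day 4. PolyA-selected RNA of the cortex gave 4 VNS libraries and 4 controls. Strain, sex and age were not stated in the sources, and nothing ties libraries to litters or days, so the p-values measure the spread between these libraries.

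Neurons that fire strongly switch on immediate early genes within minutes, without first making new protein. Some of these encode transcription factors that start further programmes, and others encode proteins that act at the synapse itself. In the hippocampus and cortex such genes are used as markers of recently active excitatory neurons, for example after exploration of a new place or object. Npas4 encodes an activity-dependent bHLH-PAS transcription factor that works as a dimer with ARNT proteins and controls genes for inhibitory and excitatory synapses. Arc encodes a cytoskeleton-associated protein that promotes the removal of AMPA receptors from the synapse and forms virus-like capsids. Homer1 encodes a postsynaptic scaffold that links group I metabotropic glutamate receptors to Shank proteins and to intracellular calcium channels.

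The Arc record NM_019361 lies on chromosome 7 from 115812499 to 115815943 in rn5, on the minus strand, with 3 exons and 3026 exon bases. The Npas4 record NM_153626 lies on chromosome 1 from 227192031 to 227196795, on the minus strand, with 8 exons and 2460 exon bases. The Homer1 record NM_031707 lies on chromosome 2 from 42107429 to 42208021, on the plus strand, with 10 exons and 4049 exon bases. It is the record of the long form, and its last exon alone holds 2845 of those bases. Neuronal activity induces a short form, Homer1a, which shares the first 5 exons and then ends in the following intron. That end is no part of the record, so the Homer1 values below hold reads of the long form together with any short-form reads in the shared exons, and cannot give the short form separately. No other record overlaps any of the 3, so their reads were not lost to a neighbour or to another record of the same gene.

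For 2 of the 3 genes the RefSeq table of promoter windows (build GRCr8, 250 bases before to 50 after the annotated start) held a sequence. These windows are shown because the genes are known for activity-dependent transcription. Capitals mark TATAA on the gene's strand and TCGTG on either strand, the core letters bound by NPAS4 dimers. The Npas4 window is chr1:211716053-211716352 on the minus strand and the Homer1 window is chr2:26278762-26279061 on the plus strand.
Npas4: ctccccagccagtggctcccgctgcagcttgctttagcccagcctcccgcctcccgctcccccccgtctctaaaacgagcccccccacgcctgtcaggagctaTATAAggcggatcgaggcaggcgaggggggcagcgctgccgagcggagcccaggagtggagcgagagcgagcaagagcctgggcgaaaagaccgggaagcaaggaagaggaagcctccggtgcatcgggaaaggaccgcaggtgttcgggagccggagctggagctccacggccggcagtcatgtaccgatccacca
Homer1: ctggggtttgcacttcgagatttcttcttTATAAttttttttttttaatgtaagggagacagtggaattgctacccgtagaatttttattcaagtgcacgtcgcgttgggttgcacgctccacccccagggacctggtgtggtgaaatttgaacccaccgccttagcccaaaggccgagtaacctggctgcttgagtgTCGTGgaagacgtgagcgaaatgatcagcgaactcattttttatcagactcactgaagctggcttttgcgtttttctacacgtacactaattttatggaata
The Npas4 window was GC-rich, at 67.0% G and C, against 44.7% in the Homer1 window and a median of 51.7% over all 33469 windows. Relative to the annotated start, TATAA began at position -147 in Npas4 and -221 in Homer1, and 18.4% of all windows hold it. TCGTG was matched 1 time in the Homer1 window, at position -52, and 17.0% of all windows hold it. Neither window held the cAMP response element TGACGTCA (1.83% of all windows), its core TGACG (21.2%), the AP-1 site TGANTCA (7.33%), a CArG box (1.64%) or a MEF2 site (3.29%), searched on both strands. CANNTG, the E-box, was matched 1 time in each, and 72.1% of all windows hold it.

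Hippocampal libraries held 16728486 to 51463555 counts, of which ribosomal RNA records took 9.34% to 73.1% in VNS and 7.11% to 19.3% in control libraries. The lowest total and the 73.1% belonged to the same library, VNS library 3. It kept 4301901 counts outside ribosomal and 7SL RNA records, against 12147165 or more in each other library. Levels below are read counts scaled to a common library size (CPM), with library sizes adjusted by the trimmed mean of M values (TMM). The hippocampal libraries labelled control 1 and 2 went against their label in genes that mark forebrain neurons. Of 12 forebrain excitatory neuron markers, 11 had a record, and all 11 were detected in every library. Their summed level was 2003 to 3061 CPM in VNS libraries, and 375.6, 111.6 and 2213 CPM in control libraries 1, 2 and 3. Of 10 thalamic neuron markers, 8 had a record, and their summed level was 118.2 to 279.0 CPM in VNS libraries and 2054, 613.9 and 133.5 CPM in control libraries 1, 2 and 3. Gbx2 and Shox2 of that list were at 0 in at least 1 library. Brainstem and midbrain markers (9 of 10 with a record, Gata3, Hoxb3 and Hoxb5 at 0 in at least 1 library) summed to 7.62 to 23.4 CPM in VNS libraries and to 84.3, 96.0 and 11.3 CPM in the 3 controls. The fitted log2 fold changes, the differences in mean log2 CPM and the gene list counts are therefore given with all 7 libraries and also without control libraries 1 and 2, while likeness of profile uses all 7.

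Npas4 is described first, as the transcription factor of the group. It was the scarcest of the 3 genes in the hippocampus and spanned a 4.71-fold range among the stimulated rats. VNS libraries 1, 2, 3 and 4 held 88, 40, 28 and 248 Npas4 counts, or 1.30, 1.94, 5.69 and 6.14 CPM. Control libraries 1, 2 and 3 held 95, 65 and 600 counts, or 1.93, 1.18 and 12.4 CPM. VNS libraries 1 and 2 thus lay beside control libraries 1 and 2, VNS libraries 3 and 4 were higher, and control library 3 was the highest of all, so the groups overlapped. The 95% Poisson intervals of VNS library 2 (1.39 to 2.64 CPM) and VNS library 3 (3.78 to 8.23 CPM) did not meet, and these intervals cover counting error only. The VNS mean was 3.77 ± 2.50 CPM (SD, n = 4) and the control mean 5.18 ± 6.29 CPM (SD, n = 3).

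The fitted Npas4 log2 fold change of VNS over control was -0.50 (SE 0.87, 95% interval -2.51 to 1.499), with an adjusted p = 0.80 in edgeR's quasi-likelihood test over 12728 records. The difference in mean log2 CPM between the groups was 0.01 (exact two-sided permutation p = 1), so the mean of logs and the fitted ratio of means differed in sign. Without control libraries 1 and 2 this difference was -2.02 for Npas4, -1.15 for Arc and -0.30 for Homer1, against a lone control library. With 35 ways to split 7 libraries into 4 and 3, the smallest two-sided p is 0.057. Without control libraries 1 and 2, every VNS library lay below the remaining control, and the log2 fold change was -1.80 (SE 0.67, adjusted p = 0.99995). Without control library 3 it was 1.23 (SE 0.68, adjusted p = 0.29). Both of these values rest on a choice of libraries, and the first takes the spread of a lone control from that of the VNS group.

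Arc, the synaptic effector of the group, was abundant in all VNS libraries and in control library 3. VNS libraries 1, 2, 3 and 4 held 5652, 2061, 465 and 7508 Arc counts, or 83.7, 100.1, 94.5 and 186.0 CPM. Control libraries 1, 2 and 3 held 1258, 848 and 11836 counts, or 25.6, 15.4 and 245.1 CPM. VNS libraries 1 to 3 lay close together, VNS library 4 stood above them, and the controls enclosed the whole VNS group, with control libraries 1 and 2 below it and control library 3 above it. The VNS mean was 116.1 ± 47.1 CPM (SD, n = 4) and the control mean 95.4 ± 129.8 CPM (SD, n = 3), so the SD was 40.6% of the mean in VNS and 136.1% in control libraries.

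The fitted Arc log2 fold change was 0.29 (SE 0.86, 95% interval -1.68 to 2.25, adjusted p = 0.90, edgeR quasi-likelihood test). The difference in mean log2 CPM was 1.26 (exact two-sided permutation p = 0.29). Without control libraries 1 and 2 the fitted value was -1.09 (SE 0.37, adjusted p = 0.99995), and all 4 VNS libraries were below control library 3. Without control library 3 it was 2.51 (SE 0.39, adjusted p = 0.0080), and in that fit 1377 of 12931 records passed. The value was also negative without control library 1 (-0.17), control library 2 (-0.22) or VNS library 4 (-0.04). The sign of the Arc difference therefore went with which libraries were included, and the low Arc level of control libraries 1 and 2 stood beside their low forebrain marker level. The part of tissue make-up in the Arc result was not tested. In bulk samples, fewer cells of a type and less RNA per cell cannot be told apart.

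Homer1, the scaffold, was the steadiest of the 3 in stimulated rats. VNS libraries 1, 2, 3 and 4 held 8952, 2123, 554 and 5367 Homer1 counts, or 132.6, 103.1, 112.6 and 133.0 CPM. Control libraries 1, 2 and 3 held 2971, 1797 and 7135 counts, or 60.5, 32.6 and 147.8 CPM. The VNS libraries fell within a 1.29-fold range, whereas the controls spanned a 4.54-fold range around them, with control libraries 1 and 2 below and control library 3 above all VNS libraries. The VNS mean was 120.3 ± 14.9 CPM (SD, n = 4) and the control mean 80.3 ± 60.1 CPM (SD, n = 3). The SD was 12.4% of the mean in VNS libraries for Homer1, against 66.3% for Npas4.

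The fitted Homer1 log2 fold change was 0.58 (SE 0.44, 95% interval -0.43 to 1.597, adjusted p = 0.54, edgeR quasi-likelihood test). The difference in mean log2 CPM was 0.85 (exact two-sided permutation p = 0.29). Without control libraries 1 and 2 the fitted value was -0.31 (SE 0.21, adjusted p = 0.99995), and without control library 3 it was 1.37 (SE 0.26, adjusted p = 0.016). Without control library 2 it was 0.21. Of the 3 genes 0 passed with all 7 libraries, and over all tested records 0% passed (0 of 12728 with edgeR, 17 with DESeq2 and 0 with limma-voom). An unadjusted p under 0.05 was found for 0 of the 3 genes and for 12.1% of all records. The groups overlapped for all 3 genes, and did not overlap for 9.28% of all records.

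**Figure D1:**
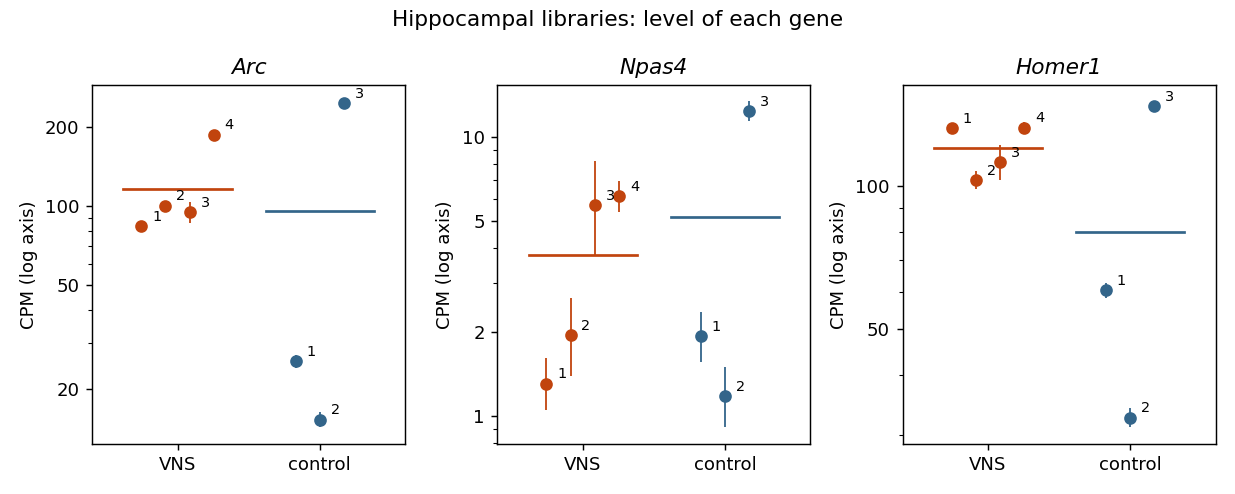
Level of Arc, Npas4 and Homer1 in each hippocampal library in CPM on a log axis, with points numbered by library, vertical bars for 95% Poisson intervals and horizontal lines for group means on the linear scale. Control libraries 1 and 2 are below all VNS libraries for Arc and Homer1, control library 3 is above them for all 3 genes, and VNS libraries 1 and 2 are as low as control libraries 1 and 2 for Npas4.

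Per kilobase of exon, the hippocampal level of Homer1 was 25.5 to 32.8 CPM per kb in VNS and 8.04 to 36.5 in control libraries. That of Arc was 27.7 to 61.5 CPM per kb in VNS and 5.08 to 81.0 in control libraries. Npas4 was at 0.53 to 2.50 CPM per kb in VNS and 0.48 to 5.05 in control libraries, below both other genes in every library. Arc and Homer1 overlapped on this scale. In raw counts their order changed between libraries. There were 0.63, 0.97, 0.84 and 1.399 Arc counts per Homer1 count in VNS libraries 1 to 4, against 0.42, 0.47 and 1.66 in control libraries 1 to 3, so Arc led in VNS library 4 and control library 3 only. Among the tested records of a library, ranked per kilobase, Arc stood at percentiles 84.0 to 94.4 in VNS libraries and 42.0 to 96.4 in controls. Homer1 stood at percentiles 83.4 to 87.5 in VNS libraries and 54.0 to 88.8 in controls, and Npas4 at percentiles 12.3 to 28.2 in VNS libraries and 10.6 to 41.5 in controls.

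The 3 genes did not keep a fixed proportion to one another among the stimulated rats. There were 64.2, 51.5, 16.6 and 30.3 Arc counts per Npas4 count in VNS libraries 1, 2, 3 and 4, against 13.2, 13.0 and 19.7 in control libraries 1, 2 and 3. VNS libraries 1 and 2 had the highest ratios, with little Npas4 and with Arc levels near that of VNS library 3. Homer1 counts per Npas4 count were 101.7, 53.1, 19.8 and 21.6 in VNS libraries 1 to 4 and 31.3, 27.6 and 11.9 in control libraries 1 to 3. In log2 CPM relative to the mean of all 7 libraries, VNS library 1 was at -1.21 for Npas4, 0.15 for Arc and 0.51 for Homer1, whereas control library 3 was at 2.00, 1.69 and 0.67 and was thus the highest library for each gene. These ratios and relative levels are descriptions of single libraries, with no test.

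**Figure D2:**
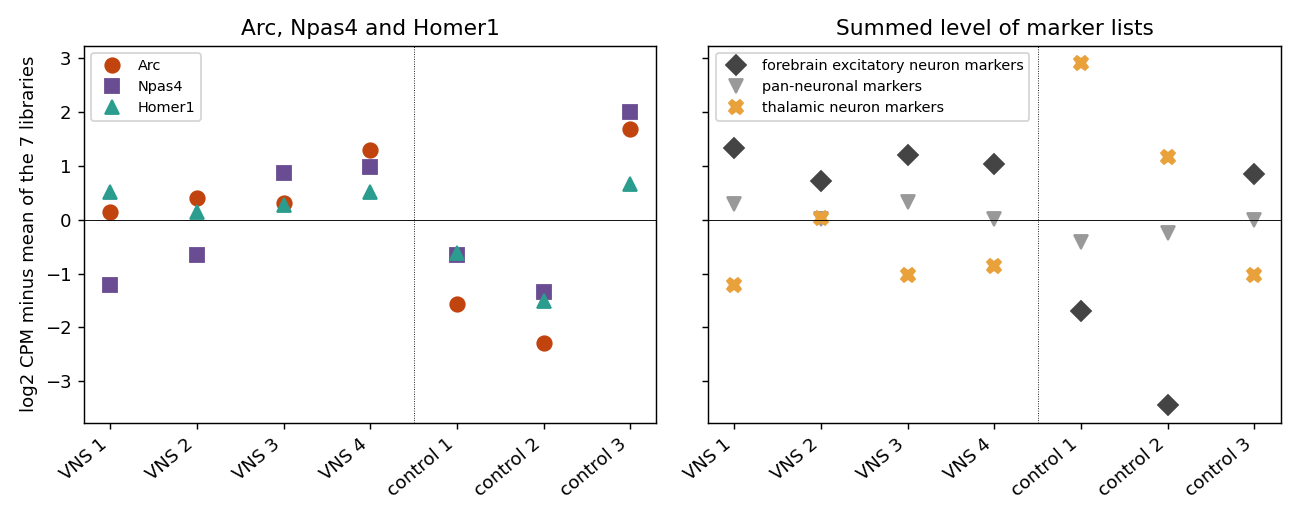
Left, log2 CPM of Arc, Npas4 and Homer1 in the 7 hippocampal libraries, each relative to its own mean. Right, log2 summed CPM of 3 marker lists on the same scale. Control libraries 1 and 2 are low for Arc, Homer1 and forebrain markers and high for thalamic markers, whereas Npas4 is also low in VNS libraries 1 and 2, where forebrain markers are high.

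Levels were next set against summed neuron markers in the same library. Per 1000 CPM of forebrain excitatory neuron markers, Npas4 had 0.43, 0.97, 2.02 and 2.45 CPM in VNS libraries 1 to 4, against 5.15, 10.6 and 5.61 CPM in control libraries 1 to 3. On this scale each VNS library was below each control. Homer1 was at 39.9 to 53.0 CPM in VNS libraries and at 161.1, 291.7 and 66.8 CPM in the 3 controls, also without overlap. Arc had 27.4, 49.96, 33.5 and 74.2 CPM in VNS libraries, against 68.2, 137.6 and 110.8 CPM in controls, where VNS library 4 lay above control library 1. The marker sums of control libraries 1 and 2 given above were far below that of control library 3, so their ratios rest on small denominators. At the same CPM, a smaller denominator gives a higher ratio. Control library 3, whose marker sum of 2213 CPM lay within the VNS range, was also above each VNS library for all 3 genes. The part of the denominators in the separation was not tested. The share of all records without overlap on this scale was not computed, so the separation cannot be called particular to these genes.

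Pan-neuronal markers, which neurons of all regions share, differed less between libraries, at 4500 to 5624 CPM in VNS and 3376 to 4467 CPM in control libraries. All 8 of these markers had a record, and 2 of the 3 Snap25 records were at 0 in every library. The remaining Snap25 record was at 0.20 to 0.95 CPM, so Snap25 added almost nothing to the sum. Overlap between the 3 Snap25 records was not examined, so these values may not give the level of the gene. Per 1000 CPM of these markers, Arc had 15.4, 22.0, 16.8 and 41.3 CPM in VNS libraries 1 to 4, against 7.59, 4.05 and 54.9 CPM in control libraries 1 to 3. Npas4 had 0.24, 0.43, 1.01 and 1.37 CPM in VNS libraries, against 0.57, 0.31 and 2.78 CPM in controls. Homer1 was at 20.0 to 29.6 CPM in VNS libraries and at 17.9, 8.58 and 33.1 CPM in the 3 controls. With this denominator the groups overlapped for each of the 3 genes, and control library 3 was again the highest library for each.

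**Figure D3:**
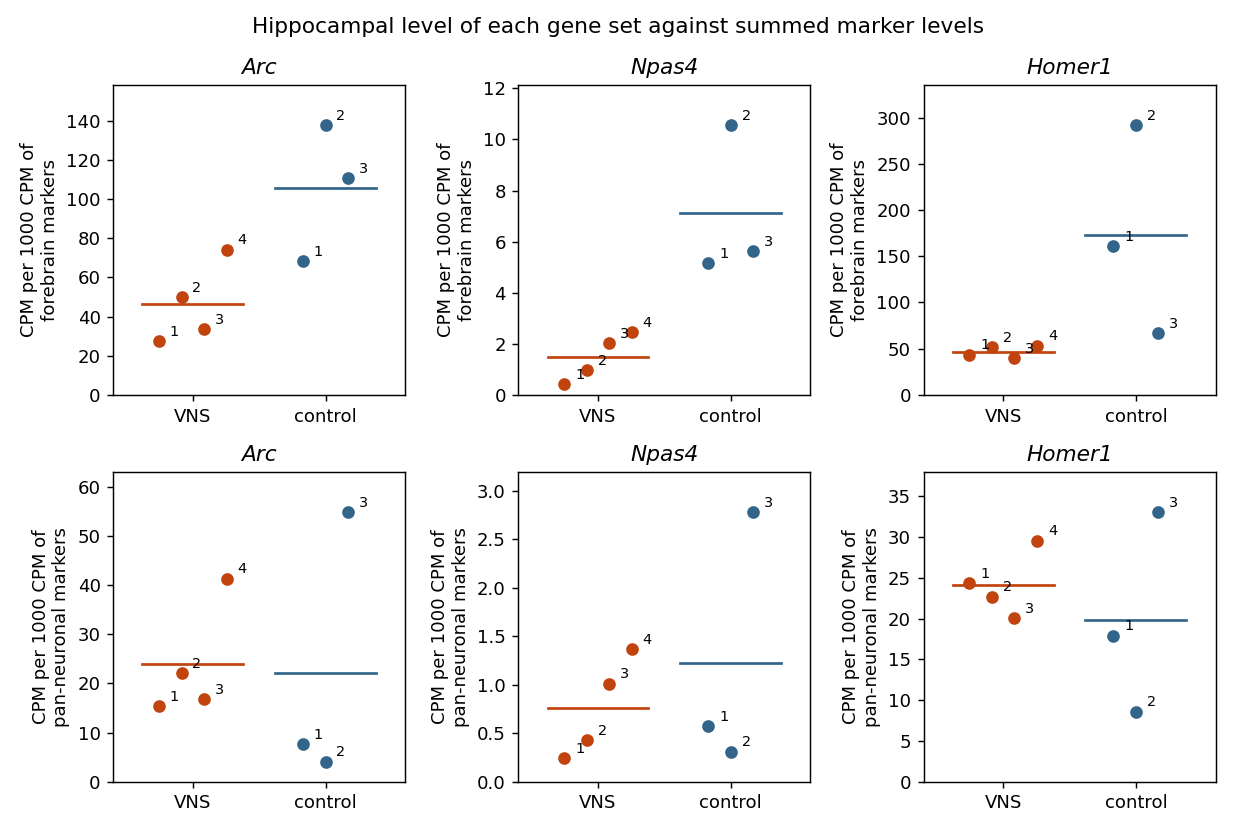
Hippocampal level of each gene per 1000 CPM of forebrain excitatory neuron markers (top) and of pan-neuronal markers (bottom), with points numbered by library and lines for group means. Npas4 and Homer1 are lower in every VNS library than in every control in the top row only, where the marker sum of control libraries 1 and 2 is small.

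The genes whose hippocampal profile was nearest to each of the 3 were found by the root mean square difference of centred log2 CPM over the 7 libraries, among 11886 other symbols. Nearest to Arc were Egr4, a zinc finger transcription factor (0.33), the orphan nuclear receptor gene Nr4a1 (0.37), the lysyl oxidase family gene Loxl4 (0.39), Nr4a2 (0.43) and the heparan sulfate enzyme gene Ndst4 (0.49). Egr4 had 12.2, 14.4, 14.2 and 22.3 CPM in the 4 VNS libraries, in order of their numbers, against 2.44, 1.16 and 26.5 CPM in the 3 controls. As with Arc, VNS library 4 was the highest VNS library, control libraries 1 and 2 were the lowest of all and control library 3 the highest. Egr4, Nr4a1 and Nr4a2 are themselves activity-regulated genes.

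Nearest to Npas4 were Tmem26 (0.57), the AP-1 subunit gene Junb (0.62), Fam110a (0.66), Stbd1 (0.67) and the zinc finger gene Tshz3 (0.70), all at a greater distance than the neighbours of Arc. Over the 7 libraries Tmem26 was at 0.14 to 2.44 CPM, Fam110a at 0.21 to 0.81 CPM and Stbd1 at 0.87 to 2.85 CPM. The distances of these 3 genes thus rest on low counts. Junb had 24.7, 32.4, 33.1 and 51.5 CPM in VNS libraries, against 16.4, 13.9 and 69.9 CPM in controls. Nearest to Homer1 were Tspan17 (0.16), Tmem178a (0.16), the tyrosine phosphatase gene Ptpn1 (0.17), Pgbd5 (0.19) and Unc13a, which primes synaptic vesicles (0.19). Unc13a had 339.9, 268.3, 240.1 and 279.6 CPM in VNS libraries, against 122.8, 90.6 and 282.2 CPM in controls. The distance between Arc and Npas4 was 0.86, between Arc and Homer1 0.69, and between Npas4 and Homer1 0.92. Ranked by nearness to Arc among the 11886 symbols, Homer1 was number 109 and Npas4 number 318. By nearness to Npas4, Arc was number 51 and Homer1 number 107, whereas by nearness to Homer1, Arc was number 3238 and Npas4 number 8333. The distance is not scaled for spread, and centred log2 CPM ran from -2.30 to 1.69 for Arc but from -1.51 to 0.67 for Homer1. Each of these 2 genes was lowest in control libraries 1 and 2 and highest in control library 3. A high rank number therefore does not mean an unlike order of libraries. These distances share the same 7 libraries and their differences in tissue, and describe likeness of level only.

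The other genes of the pathways were taken from lists, none of whose members passed. The list of Arc regulators and binding partners had 17 tested records, of which 0 passed in either direction and 14 had positive log2 fold changes (median 0.27, against -0.01 over all 12728 records). Of all records, 49.2% had positive values. The member with the smallest p was 1 record of Camk2b, a kinase subunit that binds Arc (log2 fold change 1.13, SE 0.35). Its counts are uncertain because the gene has more than 1 record, and overlap between those records was not examined. Another record of Camk2b, at a mean of 0.17 CPM in VNS and 1.10 CPM in control libraries, had a value of -2.51 (SE 0.85). Next was Mef2d, a transcription factor (0.62, SE 0.20), at 84.3 CPM on average in VNS and 54.9 CPM in control libraries, with groups that did not overlap. All 3 records had an adjusted p = 0.40 in edgeR's test. Groups did not overlap for 2 of the 17 records of this list, against 9.28% of all records. These were Mef2d and the Camk2b record with the negative value. Camk2a, the forebrain kinase gene, was at 1610 to 2523 CPM in VNS libraries and at 355.6, 139.5 and 2058 CPM in the 3 controls, low in the same control libraries as the forebrain markers.

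Homer1 family members and binding partners had 14 tested records, of which 0 passed and 11 had positive values (median 0.58). The 2 with the smallest p were Dnm3, a dynamin of the postsynapse (-1.06, SE 0.33), and the paralog Homer3 (1.23, SE 0.42), with an adjusted p = 0.40 for both in edgeR's test. Homer3 had 59.5, 23.5, 30.3 and 29.4 CPM in VNS libraries 1 to 4, against 11.1, 9.95 and 24.8 CPM in control libraries 1 to 3. The other paralog, Homer2, was at 33.9 to 40.5 CPM in VNS libraries and at 34.9, 11.6 and 37.6 CPM in controls, so that only control library 2 was low. Grm5, the receptor that the Homer1 protein tethers, was at 202.3 to 264.0 CPM in VNS libraries and at 79.7, 113.9 and 223.5 CPM in controls. Like Homer1 itself, Grm5 was low in control libraries 1 and 2.

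Dimer partners and paralogs of Npas4 had 4 tested records, of which 0 passed and 3 had positive values (median 0.15). Arnt2, the dimer partner enriched in neurons, was at 187.7 to 238.2 CPM in VNS libraries and at 123.4, 216.2 and 247.2 CPM in controls (log2 fold change 0.13, SE 0.24). Npas1, a paralog, had a value of 0.19 (SE 0.23). The partner was thus far more abundant than Npas4 in every library, on the same CPM scale but without length correction. Reported target genes of Npas4 had 12 tested records, of which 0 passed and 11 had positive values (median 0.32). In that list 1 record of Bdnf, the neurotrophin gene, was at 1.64 (SE 0.71) and below 1 CPM in both group means, and Plk2, a kinase of synaptic scaling, was at 1.13 (SE 0.68). Bdnf has further records in that list. As for Camk2b, overlap between its records was not examined, so its counts are uncertain and cannot be taken as the level of the gene. Of 32 tested records of other activity-regulated genes, 0 passed and 20 had positive values (median 0.15). Those with the smallest p were Trib1 (-0.72, SE 0.29) and the Bdnf record above. This list shares records with the Npas4 targets, those of Bdnf among them, and Plk2 is also on the Homer1 list. The lists are thus not separate sets of genes.

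Without control libraries 1 and 2, the lists were read against a background of 51.4% positive values and a median of 0.01 over 13111 records. Positive values were then found for 11 of 17 records of Arc regulators and partners (median 0.06) and 8 of 14 of the Homer1 family and partners (median 0.0019). They were found for 0 of 4 dimer partners and paralogs of Npas4 (median -0.14), 5 of 12 reported Npas4 targets (median -0.03) and 8 of 32 other activity-regulated records (median -0.33). The log2 fold change of Dnm3 was then 0.03 (SE 0.24), that of Mef2d 0.21 (SE 0.22) and that of Homer3 0.53 (SE 0.45). The records of Camk2b were at 0.44 (SE 0.33) and -1.79 (SE 1.04), Arnt2 was at -0.22 (SE 0.21), Npas1 at -0.04 (SE 0.25) and Plk2 at -0.06 (SE 0.38). Trib1 was at -0.95 (SE 0.34) and the Bdnf record at 1.27 (SE 0.99), and each of these named records had an adjusted p = 0.99995 in edgeR's test. The medians of the Npas4 lists and of the other activity-regulated genes thus changed sign with these 2 libraries.

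**Figure D4:**
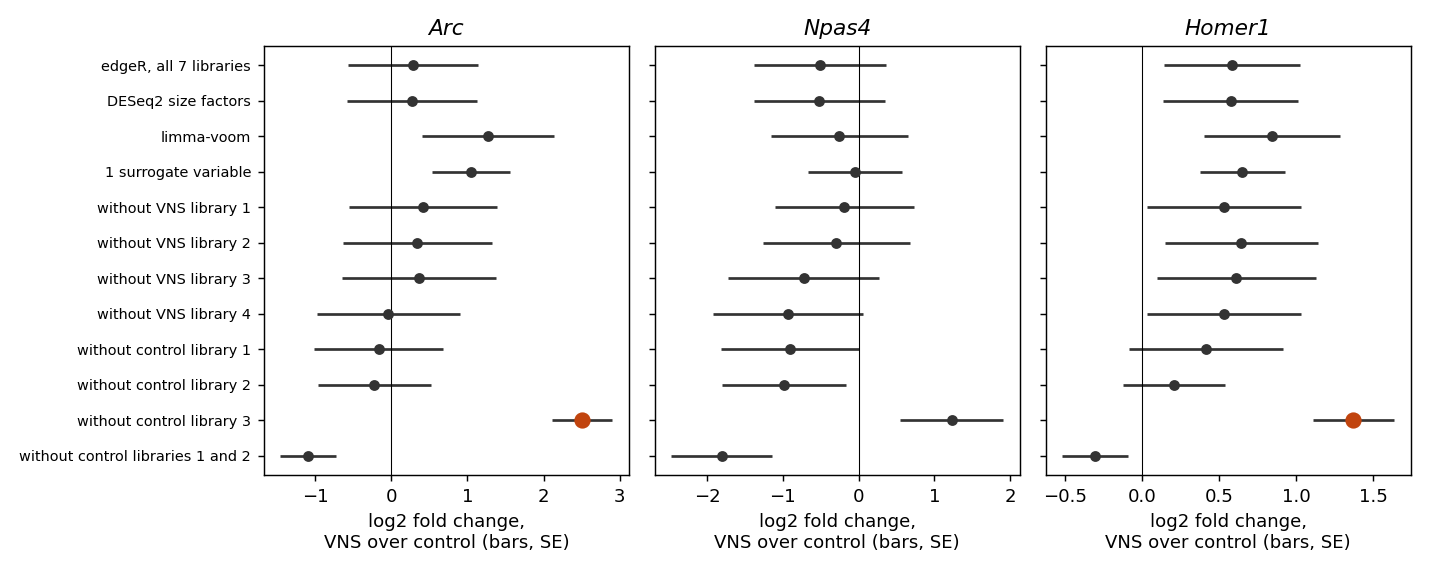
Log2 fold change of VNS over control in hippocampus for Arc, Npas4 and Homer1, with bars for SE, in 12 settings, and filled orange points for those with an adjusted p under 0.05. Only the fit without control library 3 has such points, for Arc at 2.51 and Homer1 at 1.37, and the values without control libraries 1 and 2 are negative for each gene.

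In the cortex, counts were few. Libraries held 329130 to 435296 counts, made with strand option 1 of the counting program per the file header, while the labels name a stranded kit. The 693 records with an overlapping record on the opposite strand, 3.79% of all, took 35.5% of the cortex counts but 9.58% of the hippocampal ones. With strand thus in doubt, a cortex value may not be that of the gene it is named for, and cortex and hippocampus values are not compared.

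The Arc record held 12, 18, 20 and 22 counts in VNS cortex libraries 1 to 4 and 21, 51, 30 and 25 counts in control libraries 1 to 4. These counts equal 37.2, 53.5, 53.9 and 60.5 CPM in VNS libraries and 68.8, 120.5, 96.0 and 72.9 CPM in control libraries. All 4 VNS libraries were below all 4 controls, a separation found for 2.29% of the 3884 records tested. The VNS mean was 51.3 ± 9.90 CPM and the control mean 89.5 ± 23.9 CPM (SD, n = 4 each). The exact two-sided permutation p of 0.029 is the smallest that 70 splits allow, and after adjustment over all records Arc did not pass in edgeR's test (adjusted p = 0.99975). Among all cortex records 0.0257% passed (1 of 3884), and 0 of the 2 members tested. Arc was 1 of 93 records with an unadjusted p under 0.05, or 2.39% of those tested.

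The Homer1 record held 8 to 16 counts in VNS cortex libraries and 4 to 26 in controls, at 32.9 ± 8.85 CPM in VNS and 36.2 ± 20.0 CPM in control libraries (SD, n = 4 each). Its log2 fold change was -0.16 (SE 0.49, 95% interval -1.19 to 0.87, adjusted p = 0.99975, edgeR quasi-likelihood test). The groups overlapped fully, with the highest and the lowest library both among the controls. Npas4 had 4 counts over all 8 libraries and was not tested. It was at 0 counts in VNS libraries 1, 3 and 4 and held 2 in VNS library 2, and control libraries held 0, 0, 1 and 1. A count of 0 there allows a level of up to 7.09 to 9.83 CPM (3 counts).

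**Figure D5:**
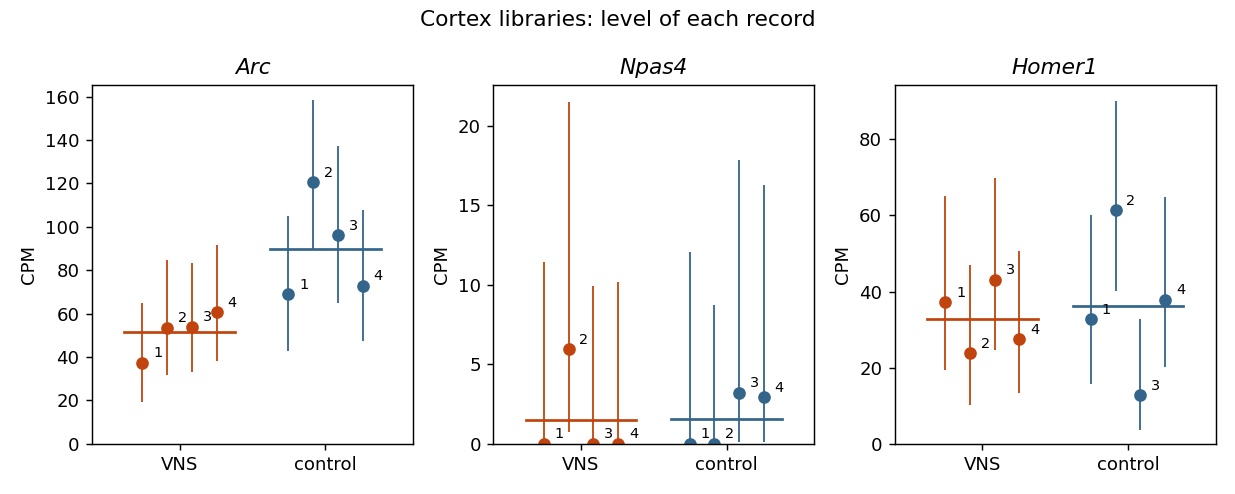
CPM of the Arc, Npas4 and Homer1 records in each cortex library, with points numbered by library, bars for 95% Poisson intervals and lines for group means. Arc is lower in all 4 VNS libraries than in all 4 controls, and the groups overlap for Homer1 and Npas4.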

How the data were processed

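Raw read counts per RefSeq transcript record were deposited for 15 rat libraries, made with featureCounts 1.4.6-p2 against an rn5 annotation per the file headers. The submitters' processing notes also name Bowtie2 and Trimmomatic, FastQC 0.10.1 and SAMtools 0.1.19, besides Subread and edgeR, with no settings stated. Per the file headers, strand option 1 was used for cortex reads and no strand option for hippocampal reads. Symbols came from a RefSeq table of GRCr8, used for names, with 17339 of 18278 records matched. No column was left unmapped, and 1 cortex column was assigned to the sample whose description it matches but for a final letter. Replicate numbers follow accession order. No pair of libraries looked like duplicates (lowest chi-square per degree of freedom 24.2 in hippocampus and 3.12 in cortex).

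Counts were fitted within each tissue over the whole table in R 4.3.3 with edgeR 4.0.16 (filterByExpr, minimum count 10 and minimum total 15, TMM, glmQLFit and glmQLFTest, Benjamini-Hochberg, threshold 0.05). The edgeR fit of each tissue, but not the permutation test, was checked on simulated data. In the hippocampal simulation, 19 of 100 records with a 2-fold change were called, and 77 of 98 with a 4-fold change. Simulated records were drawn independently, without a shared tissue difference such as that of control libraries 1 and 2. These shares therefore do not give the rate at which a change in Arc, Npas4 or Homer1 would be called in the real libraries. Single values were also compared by exact permutation of libraries. Summing records per symbol left each of the 3 genes as it was, and a share of Homer1 records could not be computed with 1 record. Alternatives were DESeq2 1.42.0, limma 3.58.1, sva 3.50.0, other scalings and filters, and leaving out libraries. Likeness used log2 CPM with a prior count of 2, the 5 nearest symbols being named. List members were named if called, or else the 2 with the smallest p, and Homer2, Homer3, Arnt2, Grm5 and Camk2a in any case. The genes, lists and tests were chosen with earlier results of these data known. Egr4, Junb and Unc13a were given library by library after their values were seen.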

Additional observations from a re-analysis of the deposited data

Results flagged for a closer look

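Arc in hippocampal VNS library 4 stood at 186.0 CPM, far from VNS libraries 1 to 3 at 83.7 to 100.1 CPM. Its gap to the next library was 0.84 of the range of the 4 libraries, above Dixon's 95% critical value for groups of 4, and without that library the Arc log2 fold change was -0.04 (adjusted p = 0.99). Npas4 in cortex VNS library 2 stood at 5.95 CPM while the other 3 VNS libraries had 0, a difference of 2 counts. With the other 3 libraries at 0, any count above 0 in that library gives a ratio of 1, so this flag was fixed by the low counts. For normally distributed values, chance flags about 1 in 20 groups. Groups of 3, such as the hippocampal controls, were not examined in this way.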

How the results depend on the processing

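No paired analysis was possible because the labels give no replicate numbers that groups share. With all 7 hippocampal libraries, 0 records passed, against 17 with DESeq2, 291 with 1 surrogate variable and 0 to 1377 when 1 library was left out, the highest without control library 3. The Arc log2 fold change of 0.29 was 1.05 with 1 surrogate variable and 1.27 with limma-voom, where it did not pass, and ran from -0.22 (without control library 2) to 2.51 (without control library 3) when 1 library was left out. It was -0.17 without control library 1, -0.04 without VNS library 4 and -1.09 without control libraries 1 and 2. DESeq2 gave no p for Arc. Npas4 ran from -0.99 to 1.23, the only positive value of 17 alternatives being that without control library 3, and was -1.80 without control libraries 1 and 2. Homer1 ran from 0.21 to 1.37, passing only without control library 3, and was -0.31 without control libraries 1 and 2. The cause was not tested. Upper-quartile scaling, DESeq2 size factors, a robust fit, testing without a filter, summing per symbol and leaving out ribosomal and 7SL RNA records kept the sign and the call of each of the 3 genes.

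The difference in mean log2 CPM kept its sign in 9 of 10 alternatives for Arc (0.48 to 2.47 leaving out 1 library) and for Homer1 (0.34 to 1.43), and in 3 of 10 for Npas4, which was -0.000487 with DESeq2 size factors, -1.41 CPM on the linear scale and -0.68 to 1.02 leaving out 1 library. Without control libraries 1 and 2, a setting added for this difference and the gene lists after seeing the data, it was -1.15 for Arc, -0.30 for Homer1 and -2.02 for Npas4. In cortex 1 record passed, against 5 without a filter, 0 with limma-voom, 2 with 1 surrogate variable and 0 to 4 leaving out 1 library. Arc stayed negative there in 15 of 15 alternatives (adjusted p from 0.97 to 0.999996), and Homer1 ran from -0.40 to 0.24 (without control library 2) leaving out 1 library. In hippocampal VNS library 3 the depth limited Npas4 to 28 counts.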
